A study of Homo sapiens with 24 samples.

Results

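Heat shock proteins are chaperones that bind unfolded stretches of other proteins and help them fold, refold or be cleared. HSP70 proteins work in cycles with HSP40 partners, which bring the substrate, and with nucleotide exchange factors, which release it, while HSP90 acts later on the folding of kinases and receptors and small heat shock proteins hold unfolded proteins without ATP. The inducible genes among them are switched on by the heat shock factor HSF1, which binds inverted repeats of the letters GAA called heat shock elements (HSE), and some are also targets of the tonicity factor NFAT5, which binds a sequence called TonE. Chondrocytes live in cartilage whose osmolarity is high and changes with load.

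The expression of 10 such genes, matched by symbol to the gene identifiers of the count files, was described out of 62703 identifiers. They are HSPA1A and HSPA1B, the stress-inducible HSP70s; HSPA8, the constitutive HSP70; HSPA4L and HSPH1, members of the HSP110 family of exchange factors; HSP90AA1, the inducible cytosolic HSP90; the co-chaperones DNAJB1, an HSP40, and BAG3, an exchange factor that links HSP70 to autophagy; and the small heat shock proteins HSPB1 and CRYAB. Of the 10, 9 had enough reads to be tested among 16600 genes, and CRYAB did not.

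On GRCh38, with positions from GENCODE 29, HSPA1A (ENSG00000204389, chromosome 6, 31815464 to 31817946) and HSPA1B (ENSG00000204388, chromosome 6, 31827735 to 31830255) are single-exon genes on the plus strand. HSPA8 (ENSG00000109971, chromosome 11, 123057489 to 123063230) and CRYAB (ENSG00000109846, chromosome 11, 111908565 to 111923722) lie on the minus strand of the same chromosome. HSPA4L (ENSG00000164070) lies on chromosome 4 from 127781821 to 127840733, HSPH1 (ENSG00000120694) on chromosome 13 from 31134974 to 31162388 and HSP90AA1 (ENSG00000080824) on chromosome 14 from 102080738 to 102139699. HSPB1 (ENSG00000106211) lies on chromosome 7 from 76302544 to 76304295, DNAJB1 (ENSG00000132002) on chromosome 19 from 14514770 to 14529770 and BAG3 (ENSG00000151929) on chromosome 10 from 119651370 to 119677819. All 10 are protein-coding, and their counts are of reads over all annotated exons.

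The study asked how WNK2, a kinase of the WNK family, and hyperosmotic stress act on gene expression in T/C-28a2 cells, an immortalised human chondrocyte line, with 24 poly(A) RNA-seq libraries in 6 groups of 4. WT Ctr is the unedited line in isotonic medium (300 mOsm) and WT Sor the same line after 7 days in medium with 100 mM sorbitol (400 mOsm). WNK2- Ctr and WNK2- Sor are cells in which exon 2 of WNK2 was deleted with CRISPR/Cas9, cultured in isotonic medium or with sorbitol in the same way. WNK2 trans Ctr and WNK2 trans Sor are unedited cells transfected with a WNK2 expression plasmid 48 hours before the medium was changed to isotonic or sorbitol medium. All groups shared the same low-serum medium. The WNK2- cells come from clonal lines sorted as single cells, so that deletion and clone cannot be told apart, and the labels do not say that libraries of a group came from separate cultures, so p-values measure only the spread between these libraries.

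Libraries held between 14153002 and 25664619 counted reads. Raw WNK2 counts were high in WNK2 trans Sor (2237 to 3739) and in WT Ctr (1217 to 2568), and low in WNK2- Ctr (440 to 501), WNK2- Sor (322 to 503), WT Sor (266 to 314) and WNK2 trans Ctr (163 to 290). The counts in WNK2 trans Ctr, under those in WT Ctr, go against a label of WNK2 transfection, so the comparisons of the members that rest on either unstressed group of unedited cells are given with both. WT Sor held 0.120 of the WNK2 level of WT Ctr (edgeR adjusted p = 1.52e-10), and its difference from WNK2- Sor did not pass the test (log2 fold change of WNK2- Sor against WT Sor 0.25 ± 0.20, 0.330), so WNK2 reads do not check the label of WT Sor. Reads of a gene whose exon 2 is deleted can still fall on its other exons, so the WNK2- counts do not check the deletion. Of 12 chondrocyte markers, SOX9 had 0 reads in all libraries, and the markers summed to 96.3 to 171 CPM (reads scaled to a common library size) in the 4 groups of unedited cells and to 27.4 to 31.8 CPM in the WNK2- groups. HAPLN1 alone, at 12.5 to 162 CPM, carried much of these sums. Of the 9 markers tested, 7 were lower in WNK2- Sor than in WT Sor (median log2 fold change -2.10), 7 in WNK2 trans Sor than in WT Sor (-1.83) and 7 in WNK2 trans Sor than in WNK2 trans Ctr (-2.08). Of all genes tested, 46.3% were called in either direction in WNK2- Sor against WT Sor. In the comparisons of WNK2 trans Sor, 15.5% and 23.7% were called lower, in that order. The 5 endothelial markers summed to 103 to 109 CPM in WNK2 trans Sor and to at most 69.8 CPM in the other groups. The part of these marker differences in the results for WNK2- and WNK2 trans Sor was not tested.

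Promoter sequences from RefSeq (GRCh38.p14), running from 250 bases before to 50 after each transcription start, were found for 9 of the 10 genes, CRYAB being the exception. They are shown to place the HSE letters of these genes. Any link between these letters and the differences between groups was not tested. A pair of HSE units (GAANNTTC or TTCNNGAA, searched on both strands) stood in the promoters of 7 of the 9 genes, against 16.2% of 27305 genes and 13.5% of 35116 promoters, and was absent from those of HSPH1 and BAG3. A run of 3 units, in which another inverted unit follows the pair after any 2 letters and which therefore contains the shorter match, stood in 0.49% of promoters and in those of HSPA8 and HSP90AA1. TonE letters, a longer motif with degenerate positions, stood in 4.92% of promoters and in 1 of the 3 promoters of HSPA4L. The letters TATAAA or TTTATA stood in 11.5% of promoters and in those of HSPA1A, HSPA1B and HSPA4L. The window of HSPA4L and another window of DNAJB1 are not printed. In the 60-base windows below, all upstream of the RefSeq start and written 5′ to 3′ on the strand of the gene, capitals mark HSE units.
HSPA1A, chr6:31815411-31815470, plus strand: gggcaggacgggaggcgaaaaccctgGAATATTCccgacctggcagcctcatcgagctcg
HSPA1B, chr6:31827607-31827666, plus strand: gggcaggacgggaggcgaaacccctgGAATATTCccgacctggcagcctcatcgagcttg
HSPA8, distal, chr11:123062327-123062386, minus strand: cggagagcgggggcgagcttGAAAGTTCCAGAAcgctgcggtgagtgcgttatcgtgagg
HSPA8, proximal, chr11:123062156-123062215, minus strand: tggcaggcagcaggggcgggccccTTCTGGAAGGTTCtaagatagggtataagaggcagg
HSP90AA1, chr14:102087089-102087148, minus strand: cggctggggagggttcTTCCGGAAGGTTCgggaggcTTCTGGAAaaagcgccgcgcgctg
DNAJB1, chr19:14518411-14518470, minus strand: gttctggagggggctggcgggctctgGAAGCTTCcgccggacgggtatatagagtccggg
HSPB1, chr7:76302465-76302524, plus strand: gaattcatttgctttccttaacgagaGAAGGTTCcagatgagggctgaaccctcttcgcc

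**Figure D1:**
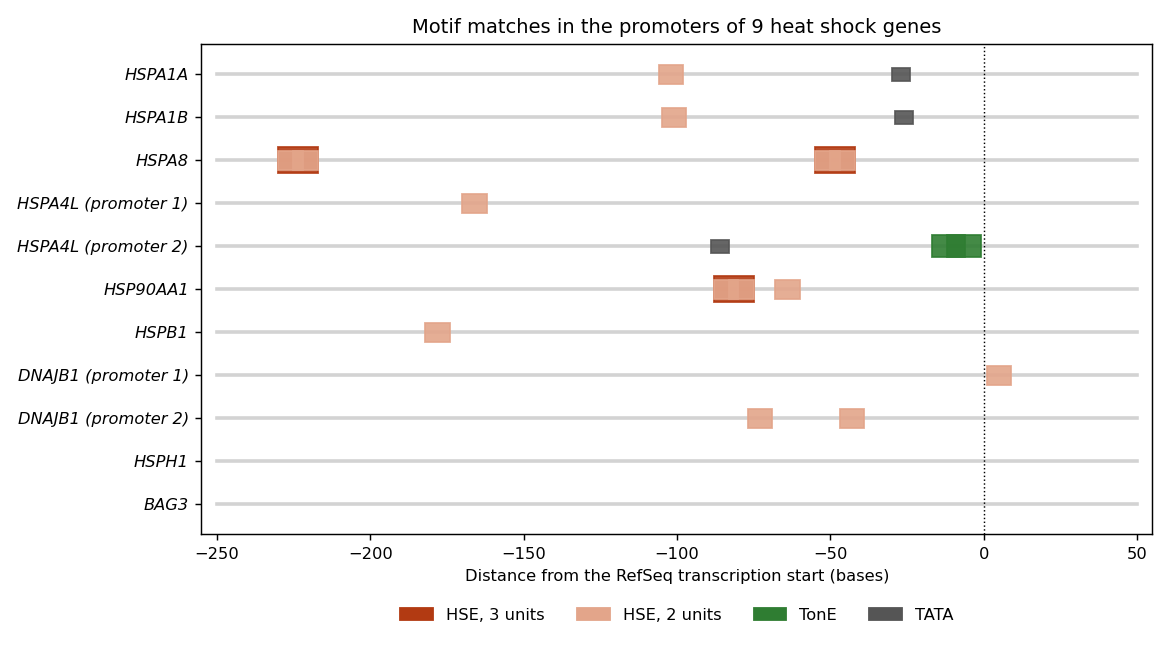
Positions of HSE, TonE and TATA letters, in bases from the RefSeq transcription start (x axis, 0 is the start), in each promoter that holds a match and in the promoters of HSPH1 and BAG3, which hold none. HSPA1A and HSPA1B carry their HSE units within 1 base of the same distance, and HSPA8 carries 2 runs of 3 units.

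HSPA1A and HSPA1B lie side by side on chromosome 6, and their promoter windows share the HSE letters at bases -106 to -99 and -105 to -98 from the start. Their transcripts are also alike, since 72.6% of the 50-base windows of HSPA1A occur in HSPA1B and 71.4% of those of HSPA1B in HSPA1A, so reads could be split or lost between them, and the values of each are uncertain. Fits of the summed counts of both genes are therefore given beside the single ones in the main comparisons in which either gene was called, with WNK2- Ctr against WNK2 trans Ctr left out. HSPA1B also shares 36.5% of its exon bases with an annotated transcript on the same strand (AL671762.1), and HSPA8 has 17 named pseudogenes, while exons of HSP90AA1 overlap those of WDR20 by 3.8% and exons of DNAJB1 those of TECR by 5.7% on the opposite strand.

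Per kilobase of exon, HSPA8 and HSP90AA1 were the most abundant of the 10 transcripts in every group. Averaged over all libraries, HSPA8 had 7824 normalised reads per kilobase, HSP90AA1 5612, HSPB1 1627, DNAJB1 958, HSPH1 745, BAG3 567, HSPA1A 403, HSPA1B 357, HSPA4L 50.2 and CRYAB 0.805. Normalised read counts here are counts divided by the library size after TMM scaling and brought to the mean library. The ranges of HSPA1A (329 to 579 per kilobase), BAG3 (326 to 553) and HSPA1B (308 to 471) overlapped in WT Ctr, so their order there is not beyond the spread. In WNK2 trans Sor, HSPB1 at 745 ± 317 per kilobase (SD, n = 4) stood beside DNAJB1 at 766 ± 86.3 and HSPH1 at 734 ± 65.3.

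All 10 genes together took 0.510% ± 0.0663 (SD, n = 4) of the counted reads in WT Ctr and 0.301% ± 0.00351 in WT Sor. Most of these reads came from HSPA8 and HSP90AA1, so the share mainly follows them. Their means in WT Ctr were 48159 and 32959 normalised reads, and the next member, HSPH1, had 5408. The WNK2- cells gave 0.545% ± 0.0194 in isotonic medium and 0.544% ± 0.0312 under sorbitol. The share was 0.424% ± 0.0231 in WNK2 trans Ctr and 0.406% ± 0.0263 in WNK2 trans Sor. No library of WT Sor (0.298 to 0.305%) reached the lowest library of any other group, which was 0.373% in WNK2 trans Sor.

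**Figure D2:**
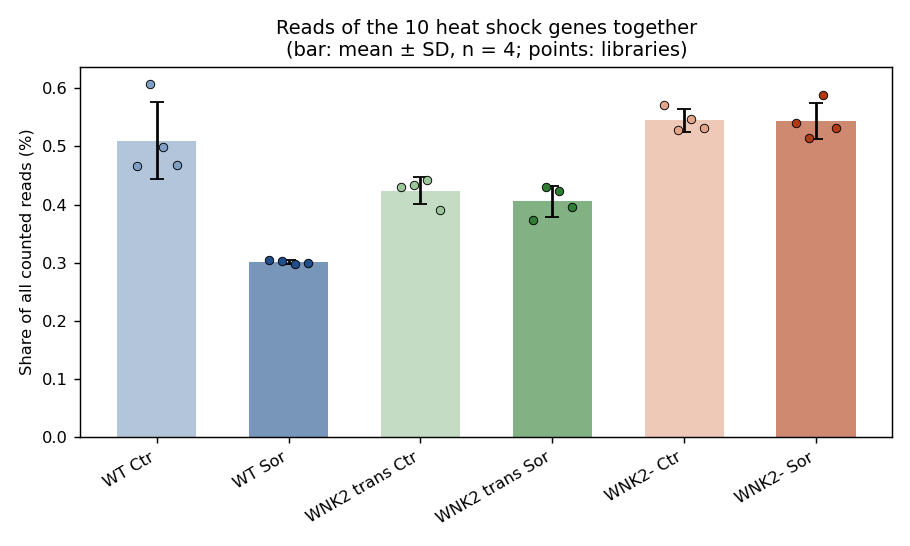
Share of all counted reads taken by the 10 genes (y axis, percent) in each group; bars are means ± SD of 4 libraries and points are libraries. WT Sor is at 0.301%, below all libraries of the other 5 groups, while WNK2- Ctr (0.545%) and WNK2- Sor (0.544%) are level. Most of the reads are those of HSPA8 and HSP90AA1.

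The first comparison asks what 7 days of sorbitol did to these genes in unedited cells. Against the libraries labelled WT Ctr, 6 of the 9 genes tested were lower in WT Sor and none was higher, where 12.7% of the 16600 genes tested were called lower and 24.1% were called in either direction (edgeR's quasi-likelihood test, Benjamini-Hochberg adjusted p under 0.05). The median log2 fold change of the 9 genes was -0.58, against 0.04 for all genes tested. The libraries of 5 of these genes did not overlap between the groups, which was so for 25.7% of all genes tested. In RNA pooled from many cells, less RNA per cell and fewer expressing cells cannot be told apart.

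HSP90AA1 had 29765, 36696, 34003 and 31372 normalised reads in the WT Ctr libraries and 17362, 16971, 16657 and 16480 in WT Sor. All 4 sorbitol libraries lay far below the control libraries and close to each other. The log2 fold change was -0.97 ± 0.08 (SE), or 0.512 of the control level (edgeR adjusted p = 4.56e-09).

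HSPA8, which serves clathrin uncoating and protein import besides folding, had 43902, 63926, 44048 and 40760 normalised reads in WT Ctr and 25153, 24586, 23915 and 24752 in WT Sor. The second WT Ctr library stood above the other 3, and the groups did not overlap with or without it. The log2 fold change was -0.97 ± 0.11 (edgeR adjusted p = 5.49e-07), and -0.80 without the second WT Ctr library (adjusted p = 2.36e-07).

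The stress-inducible pair was lower too. HSPA1A had 1439, 1267, 817 and 1104 normalised reads in WT Ctr and 773, 720, 674 and 743 in WT Sor, and its log2 fold change was -0.67 ± 0.16 (edgeR adjusted p = 0.00318). HSPA1B had 1188, 818, 776 and 1085 in WT Ctr and 617, 620, 569 and 588 in WT Sor, and its log2 fold change was -0.69 ± 0.13 (adjusted p = 0.000471). In both genes every control library was above every sorbitol library, by a small margin for HSPA1A, and the control libraries were much more spread. With the counts of both genes summed, the log2 fold change was -0.67 ± 0.13 (adjusted p = 0.000478).

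DNAJB1, the HSP40 that works with inducible HSP70, had 4103, 4390, 3449 and 3469 normalised reads in WT Ctr and 2581, 2620, 2510 and 2585 in WT Sor. The log2 fold change was -0.58 ± 0.10 (edgeR adjusted p = 0.000117), with no overlap. The 2 HSP110 genes moved less. HSPA4L had 455, 593, 718 and 523 in WT Ctr and 409, 413, 462 and 389 in WT Sor, groups that overlapped, and its log2 fold change of -0.45 ± 0.15 (adjusted p = 0.0287) passed the test with all libraries. That call was lost without WT Ctr replicate 2 (adjusted p = 0.0694) or 3 (0.148), or without WT Sor replicate 1 (0.0644), 2 (0.0623) or 4 (0.0836). HSPH1 had a log2 fold change of -0.23 ± 0.09 (edgeR adjusted p = 0.0549). It passed by DESeq2 with all libraries (adjusted p = 0.0356), and by edgeR without WT Ctr replicate 1 (adjusted p = 0.0180).

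BAG3 and HSPB1 were not called in this comparison. BAG3 had 896 to 1520 normalised reads in WT Ctr and 1146 to 1184 in WT Sor (log2 fold change -0.08 ± 0.16, edgeR adjusted p = 0.750). HSPB1 had 3662, 1974, 1825 and 2906 in WT Ctr and 2521, 2458, 1962 and 2435 in WT Sor (log2 fold change -0.14 ± 0.23, adjusted p = 0.696). The sorbitol libraries lay inside the span of the control libraries in both genes.

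**Figure D3:**
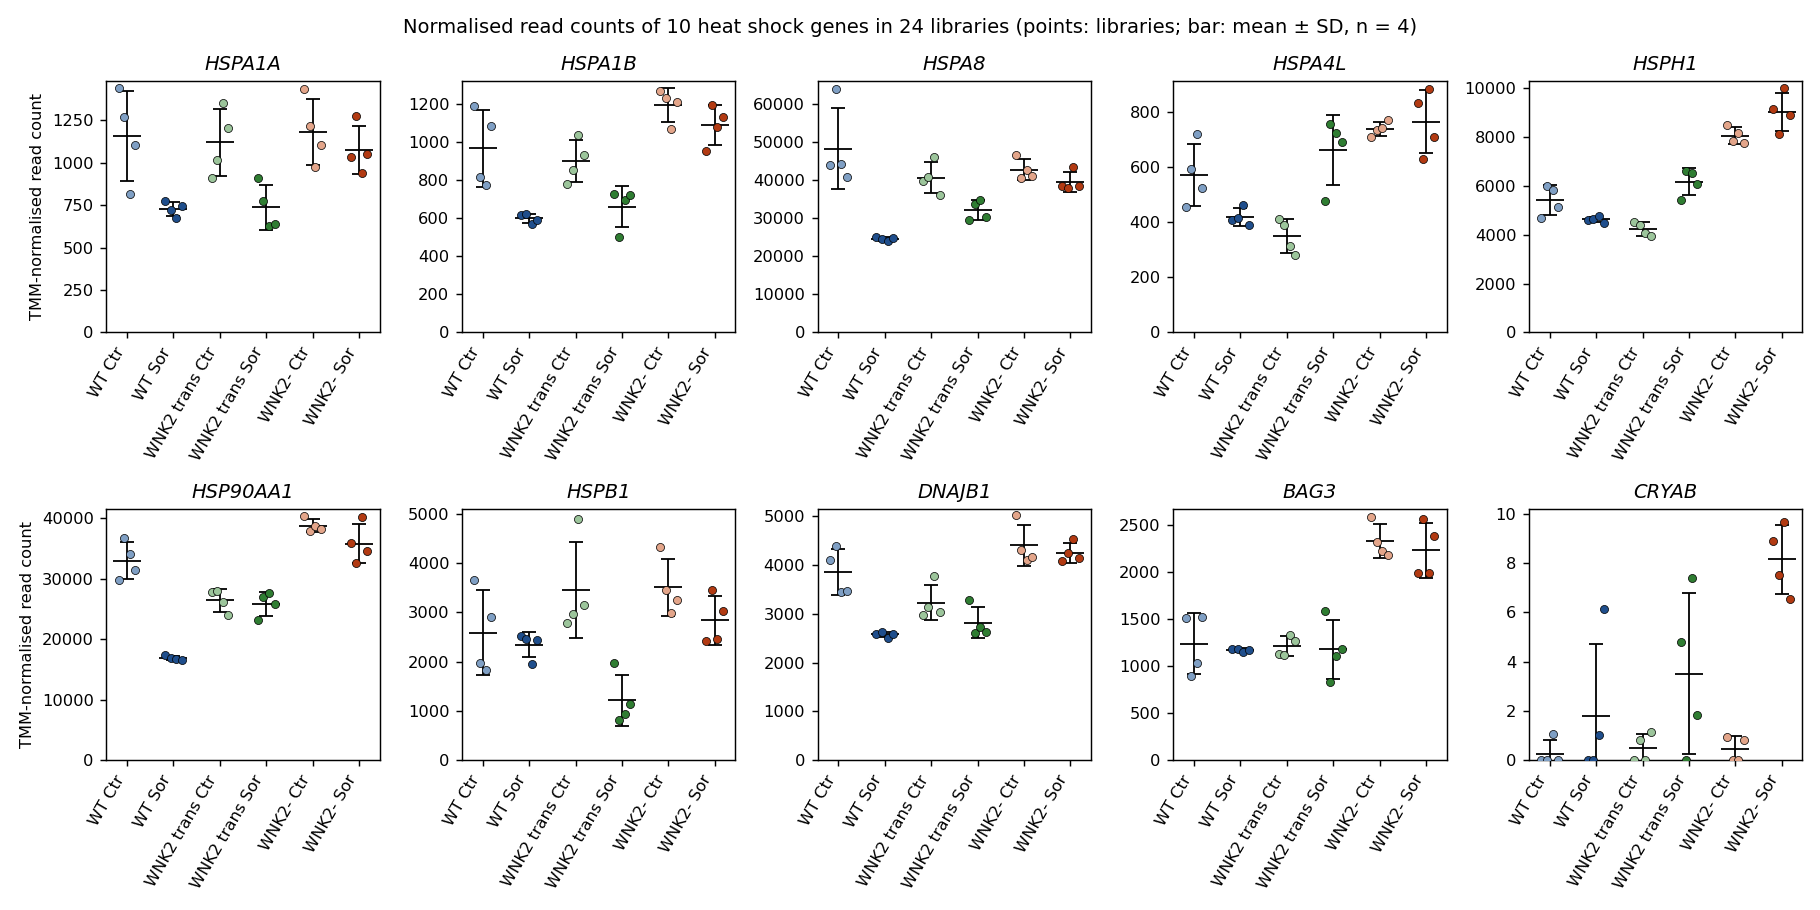
TMM-normalised read counts (y axis, from 0) of the 10 genes in each of 24 libraries by group; points are libraries and bars are means ± SD (n = 4). HSP90AA1 and HSPA8 are lowest in WT Sor, BAG3 and HSPH1 are highest in both WNK2- groups, and CRYAB stays under 10 normalised reads in every library.

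Because WNK2 reads go against the labels of the unstressed groups, WT Sor was also set against the libraries labelled WNK2 trans Ctr. There 5 of the 9 genes were lower and none was higher, where 6.31% of all genes tested were called lower and 15.1% in either direction. HSP90AA1 had a log2 fold change of -0.65 ± 0.08 (edgeR adjusted p = 2.50e-06), HSPA8 of -0.72 ± 0.11 (3.19e-05), HSPA1A of -0.62 ± 0.16 (0.00770), HSPA1B of -0.59 ± 0.13 (0.00292), the sum of both of -0.59 ± 0.13 (0.00211) and DNAJB1 of -0.33 ± 0.10 (0.0230). The DNAJB1 call was lost without WT Sor replicate 3 (adjusted p = 0.0668) or 4 (0.0511) or WNK2 trans Ctr replicate 3 (0.129). HSPA4L changed sign, at 0.26 ± 0.15 (adjusted p = 0.273), and HSPH1 stood at 0.13 ± 0.09 (0.351). Both comparisons share the WT Sor libraries.

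In WNK2- cells none of the 9 genes passed the test after sorbitol, where 14.9% of all genes tested were called. At an unadjusted p under 0.05 the count by edgeR was also 0, and DESeq2 called none. Log2 fold changes ran from -0.30 ± 0.23 for HSPB1 to 0.16 ± 0.09 for HSPH1, with a median of -0.11. HSP90AA1 had 40366, 37946, 38657 and 38149 normalised reads in WNK2- Ctr and 35840, 32553, 40139 and 34645 in WNK2- Sor, groups that overlapped (log2 fold change -0.12 ± 0.08, edgeR adjusted p = 0.385). HSPA8 had 46525, 40426, 42568 and 41043 in WNK2- Ctr and 38483, 37839, 43502 and 38447 in WNK2- Sor (-0.11 ± 0.11, adjusted p = 0.571). A change of the size seen in WT Sor lay many standard errors away from the value in either gene.

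The difference between the sorbitol responses of WNK2- and unedited cells was tested as an interaction. Against the libraries labelled WT Ctr, 4 of the 9 genes had a higher log2 change in WNK2- cells and none a lower one, where 3.99% of all genes tested were called in that direction and 8.65% in either. The interaction was 0.85 ± 0.11 on the log2 scale for HSP90AA1 (edgeR adjusted p = 1.94e-05), 0.86 ± 0.15 for HSPA8 (0.000595), 0.53 ± 0.14 for DNAJB1 (0.0159) and 0.39 ± 0.12 for HSPH1 (0.0430). HSPA1B (0.56 ± 0.18, adjusted p = 0.0584), HSPA1A (0.53 ± 0.22, 0.138) and HSPA4L (0.50 ± 0.21, 0.138) did not pass, and neither did the sum of HSPA1A and HSPA1B (0.54 ± 0.18, 0.0631). HSPA1B did pass by DESeq2 (adjusted p = 0.0290), with upper-quartile factors in edgeR (0.0465), with only the groups compared (0.0317) and without WT Ctr replicate 2 (0.0457) or 3 (0.0365). HSPH1 (0.191) and DNAJB1 (0.0579) lost their calls when low counts were kept. The values of BAG3 (0.02 ± 0.22) and HSPB1 (-0.16 ± 0.33) were near 0.

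With the libraries labelled WNK2 trans Ctr as the unstressed arm of the unedited cells, a choice made after seeing the WNK2 reads, 2 of the 9 genes passed, where 1.09% of all genes were called in that direction. These were HSPA8, at 0.62 ± 0.15 (edgeR adjusted p = 0.0189), and HSP90AA1, at 0.53 ± 0.11 (0.00580). DNAJB1 (0.28 ± 0.14, 0.376) and HSPH1 (0.04 ± 0.12, 0.951) did not. The HSPH1 call against WT Ctr also rested on most of the libraries, since it was lost in 13 of the 16 fits that left out a library (adjusted p up to 0.117), those without WT Ctr replicate 1 or 4 or WNK2- Sor replicate 2 being the exceptions.

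The comparison of WNK2- with unedited cells under sorbitol uses neither unstressed group, though WNK2 reads do not tell its 2 groups apart. Here 8 of the 9 genes were higher in WNK2- Sor than in WT Sor and none was lower, where 23.7% of all genes tested were called higher and 46.3% in either direction. The median log2 fold change of the 9 genes was 0.86, against 0.02 for all genes tested. The libraries of these 8 genes did not overlap, which held for 53.9% of all genes tested. All comparisons with WT Sor share its libraries.

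HSP90AA1 showed the widest gap, with no WNK2- Sor library under 32553 normalised reads and no WT Sor library over 17362, a log2 fold change of 1.09 ± 0.08 (edgeR adjusted p = 4.21e-11). HSPH1 had 9135, 8095, 9976 and 8884 normalised reads in WNK2- Sor and 4600, 4621, 4774 and 4485 in WT Sor, which gave a log2 fold change of 0.97 ± 0.09 (adjusted p = 1.09e-09). BAG3 had 1986, 2562, 1983 and 2385 against 1184, 1180, 1146 and 1171, a log2 fold change of 0.93 ± 0.16 (2.99e-05).

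Among the other genes of this comparison, HSPA4L had 833, 630, 881 and 709 normalised reads in WNK2- Sor, all above its WT Sor libraries (log2 fold change 0.87 ± 0.15, edgeR adjusted p = 3.18e-05). HSPA1B was higher by 0.86 ± 0.13 (6.48e-06) and HSPA1A by 0.56 ± 0.16 (0.00464), and their sum by 0.70 ± 0.13 (7.10e-05). DNAJB1 was higher by 0.72 ± 0.10 (1.07e-06) and HSPA8 by 0.69 ± 0.11 (9.60e-06). HSPB1 was the exception, with 2419, 3459, 2456 and 3024 normalised reads in WNK2- Sor, which overlapped WT Sor (0.28 ± 0.23, adjusted p = 0.349).

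In isotonic medium fewer of the genes differed. Against the libraries labelled WT Ctr, 4 of the 9 were higher in WNK2- Ctr and none was lower, where 20.7% of all genes tested were called higher and 42.1% in either direction. BAG3 had 2583, 2319, 2218 and 2183 normalised reads in WNK2- Ctr and 1506, 896, 1035 and 1520 in WT Ctr, a log2 fold change of 0.91 ± 0.16 (edgeR adjusted p = 5.29e-05). HSPH1 had 8500, 7812, 8161 and 7725 against 4698, 5985, 5820 and 5128, a log2 fold change of 0.57 ± 0.09 (7.13e-06). For both genes every WNK2- library was above every WT Ctr library. The groups did not overlap in 3 of the 9 genes, against 36.9% of all genes tested.

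Weaker calls in the same comparison were HSPA4L (0.36 ± 0.15, edgeR adjusted p = 0.0494), whose libraries overlapped, and HSP90AA1 (0.23 ± 0.08, 0.0205). HSPA4L lost its call in 7 of the 8 fits that left out a library (adjusted p 0.0598 to 0.166 in those), the fit without WT Ctr replicate 3 being the exception, and HSP90AA1 without WT Ctr replicate 1 (0.0785). HSPA8 was not called, at -0.18 ± 0.11 (0.194), nor were HSPA1A (0.03 ± 0.16, 0.897), HSPA1B (0.30 ± 0.13, 0.0613), DNAJB1 (0.19 ± 0.10, 0.118) and HSPB1 (0.44 ± 0.23, 0.136). HSPA1B did pass with upper-quartile factors (0.0452) and with a filter of at least 10 counts in every library (0.0395). It also passed without WT Ctr replicate 1 (0.0134) or 4 (0.0397). DNAJB1 passed without WT Ctr replicate 2 (0.0451), and HSPB1 without WT Ctr replicate 1 (0.0306). Against the libraries labelled WNK2 trans Ctr, WNK2- Ctr was higher in 6 of the 9 genes, where 47.7% of all genes were called in either direction. HSPA4L then stood at 1.08 ± 0.15 (1.75e-06), BAG3 at 0.94 ± 0.16 (2.49e-05), HSPH1 at 0.93 ± 0.09 (2.17e-09), HSP90AA1 at 0.55 ± 0.08 (3.32e-06), DNAJB1 at 0.45 ± 0.10 (0.000479) and HSPA1B at 0.41 ± 0.13 (0.0113).

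**Figure D4:**
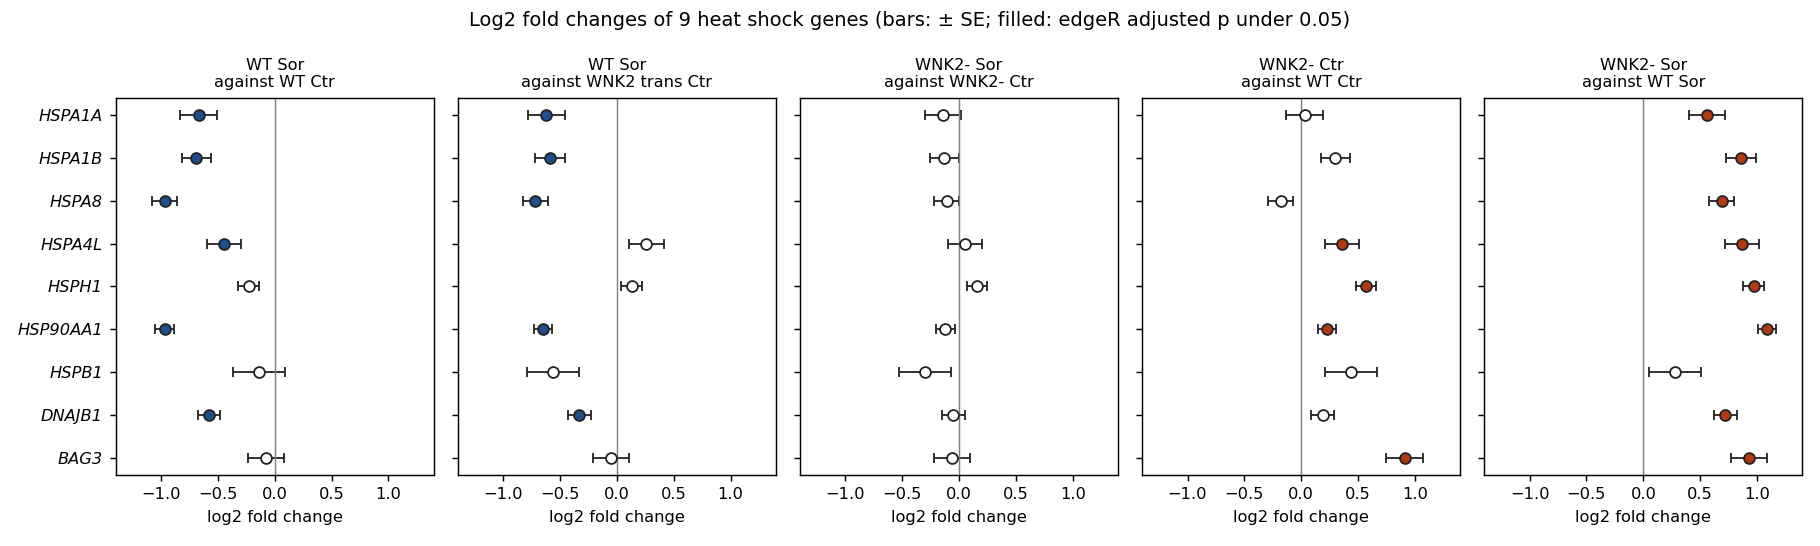
Log2 fold change ± SE (x axis) of the 9 genes tested in 5 comparisons; filled points passed edgeR's test at an adjusted p under 0.05, red higher and blue lower. HSP90AA1 and HSPA8 are lower in WT Sor against either unstressed group, no point is filled for WNK2- Sor against WNK2- Ctr, and 8 of 9 points are filled and higher for WNK2- Sor against WT Sor.

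Genes near the members on the chromosomes were compared between WNK2- and unedited cells. Over the 40 nearest tested genes, the median log2 fold change of WNK2- Sor against WT Sor was -0.53 around HSPA1A and HSPA1B, 0.13 around HSP90AA1 and BAG3, 0.02 around HSPH1, -0.05 around HSPA4L, -0.07 around DNAJB1, 0.06 around HSPA8 and 0.10 around HSPB1. HSPA1A and HSPA1B were themselves higher in WNK2- cells. On chromosome 6 the neighbours of HSPA1A ran from 31268749 to 32195523 and those of HSPA1B from 31269491 to 32224067. Around each of these genes 18 of the 40 neighbours were called lower and 3 higher. Of all genes tested, 23.7% were called higher in this comparison and 46.3% in either direction. In WNK2- Ctr against WT Ctr, the neighbours of HSP90AA1 had a median of 0.20, close to its own 0.23. The medians around BAG3 (-0.04), HSPH1 (-0.08) and HSPA4L (-0.28) did not share the direction of these genes. Whether a change of a whole chromosome stretch plays a part in any of these values was not tested.

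Cells transfected with WNK2 gave a mixed picture that depended on the unstressed group. Between WNK2 trans Sor and the libraries labelled WNK2 trans Ctr, 2 of the 9 genes were higher and 4 lower, where 24.3% of all genes tested were called higher and 23.7% lower, and the libraries of 6 of the 9 did not overlap, against 34.4% of all genes. HSPA4L had 477, 757, 722 and 691 normalised reads in WNK2 trans Sor and 412, 388, 315 and 282 in WNK2 trans Ctr, a log2 fold change of 0.92 ± 0.15 (edgeR adjusted p = 1.82e-05). HSPH1 had 5413, 6611, 6523 and 6077 against 4524, 4385, 4049 and 3948, a log2 fold change of 0.54 ± 0.09 (1.24e-05). Both HSP110 genes were higher in every sorbitol library.

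HSPB1 went the other way, with 1967, 819, 935 and 1146 normalised reads in WNK2 trans Sor and 2793, 2977, 4895 and 3157 in WNK2 trans Ctr, a log2 fold change of -1.51 ± 0.24 (edgeR adjusted p = 1.23e-05). HSPA1A (-0.60 ± 0.16, 0.00279), HSPA1B (-0.45 ± 0.13, 0.00693), their sum (-0.51 ± 0.13, 0.00187) and HSPA8 (-0.34 ± 0.11, 0.0109) were also lower, the last losing its call without WNK2 trans Ctr replicate 3 (0.0532). HSP90AA1 did not pass the test, at -0.03 ± 0.08 (0.765).

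Against the libraries labelled WT Ctr, WNK2 trans Sor was lower in 6 of the 9 genes and higher in none, where 19.5% of all genes tested were called lower and 39.2% in either direction. HSPB1 stood at -1.09 ± 0.24 (edgeR adjusted p = 0.000724), HSPA1A at -0.65 ± 0.16 (0.00206), HSPA8 at -0.59 ± 0.11 (0.000120), HSPA1B at -0.55 ± 0.13 (0.00177), DNAJB1 at -0.45 ± 0.10 (0.000633) and HSP90AA1 at -0.35 ± 0.08 (0.00125), and the sum of HSPA1A and HSPA1B at -0.59 ± 0.13 (0.000686). With these 8 libraries alone in the fit, HSPA1B (0.0593) and HSP90AA1 (0.0655) lost their calls. The libraries of HSPB1 and those of HSPA1A overlapped between the groups. HSPA4L (0.21 ± 0.15, 0.271) and HSPH1 (0.19 ± 0.09, 0.0854) were not called with all libraries. HSPH1 passed without WT Ctr replicate 2 (0.0405) or 3 (0.0466) or WNK2 trans Sor replicate 1 (0.0314).

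The interaction of transfection and sorbitol turned on the same choice. As labelled, 5 of the 9 genes had a higher sorbitol response in transfected cells and 1 a lower one, where 18.1% of all genes tested were called higher and 17.4% lower. The values were 1.38 ± 0.21 for HSPA4L (edgeR adjusted p = 1.52e-05), 0.93 ± 0.11 for HSP90AA1 (4.90e-07), 0.77 ± 0.12 for HSPH1 (2.05e-05), 0.63 ± 0.15 for HSPA8 (0.00214), 0.38 ± 0.14 for DNAJB1 (0.0317) and -1.36 ± 0.33 for HSPB1 (0.00233). With the unstressed libraries of both labels exchanged, no member passed the test and 5.46% of all genes did. HSP90AA1 then stood at 0.30 ± 0.11 (0.130), HSPB1 at -0.53 ± 0.33 (0.411) and HSPA4L at -0.05 ± 0.21 (0.930). The DNAJB1 call as labelled was also lost in 8 of the 16 fits without a library, with an adjusted p up to 0.0898: WT Ctr replicate 2, WT Sor replicates 1, 3 and 4, WNK2 trans Ctr replicates 1, 2 and 4, and WNK2 trans Sor replicate 1.

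Between the unstressed groups, 3 of the 9 genes were lower in the libraries labelled WNK2 trans Ctr than in those labelled WT Ctr, where 6.98% of all genes tested were called lower and 12.5% in either direction. HSPA4L stood at -0.71 ± 0.15 (edgeR adjusted p = 0.00183), HSPH1 at -0.36 ± 0.09 (0.00592) and HSP90AA1 at -0.32 ± 0.08 (0.00862). When these 8 libraries alone were fitted, HSPH1 (0.114) and HSP90AA1 (0.149) lost their calls. Between the sorbitol groups, WNK2 trans Sor was higher than WT Sor in 4 genes and lower in 1, where 16.1% of all genes tested were called higher and 15.5% lower. HSPA4L stood at 0.66 ± 0.15 (0.00138), HSP90AA1 at 0.62 ± 0.08 (1.88e-06), HSPH1 at 0.41 ± 0.09 (0.000624), HSPA8 at 0.38 ± 0.11 (0.00809) and HSPB1 at -0.95 ± 0.24 (0.00331). The libraries of HSPB1 overlapped between the sorbitol groups.

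Libraries differed in how their counts followed the GC content of the genes. HSPB1 (64.3% GC), HSPA1A (59.7%) and HSPA1B (58.7%) fall among the genes richest in GC, and HSPA4L (38.1%) and HSPH1 (40.0%) among the poorest. With log2 levels taken relative to each gene's mean over all libraries, the median of the 3196 genes richest in GC, less that of the 3196 poorest, was 0.52, -0.57, -0.43 and 0.12 in the WT Ctr libraries, the order in which HSPB1 had 3662, 1974, 1825 and 2906 normalised reads. In WNK2 trans Sor it ran from -0.92 to 0.33, in WNK2 trans Ctr from -0.02 to 0.62 and in WT Sor from 0.15 to 0.29. After correction for GC content and gene length, HSPB1 in WNK2 trans Sor stood at -1.04 ± 0.10 against the libraries labelled WNK2 trans Ctr (edgeR adjusted p = 4.15e-09) and HSPA4L at 0.68 ± 0.08 (1.48e-07). In WT Sor against WT Ctr the corrected value of HSPB1 was -0.37 ± 0.10 and passed the test (0.00655), while HSP90AA1 (-0.87 ± 0.06) and HSPA8 (-0.87 ± 0.08) stayed called. HSPA4L also stayed lower there (-0.39 ± 0.08, 0.000903). In WT Sor against WNK2 trans Ctr, HSPA4L was called higher after the correction (0.24 ± 0.09, 0.0396) and HSPB1 lower (-0.54 ± 0.10, 0.000281). With the correction 24.3% of all genes were called in that comparison. Between WNK2 trans Sor and WNK2 trans Ctr, HSPA1B lost its call (-0.18 ± 0.08, 0.0587) and HSP90AA1 gained one (-0.19 ± 0.06, 0.00497). HSPA1A moved from -0.60 to -0.28 ± 0.11 (0.0377) and HSPH1 from 0.54 to 0.35 ± 0.06 (5.55e-05), and both stayed called. HSPA8 moved away from 0, to -0.46 ± 0.08 (3.19e-05). In WNK2- Sor against WT Sor all 9 genes passed after the correction, HSPB1 at 0.53 ± 0.10 (8.61e-05), where 54.0% of all genes did. The correction raised the number called to 7 in WNK2- Ctr against WT Ctr, where 50.1% of all genes were called with it, to 8 in WNK2 trans Sor against WT Sor (37.4%) and to 7 in the interaction of genotype and sorbitol (13.4%).

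**Figure D5:**
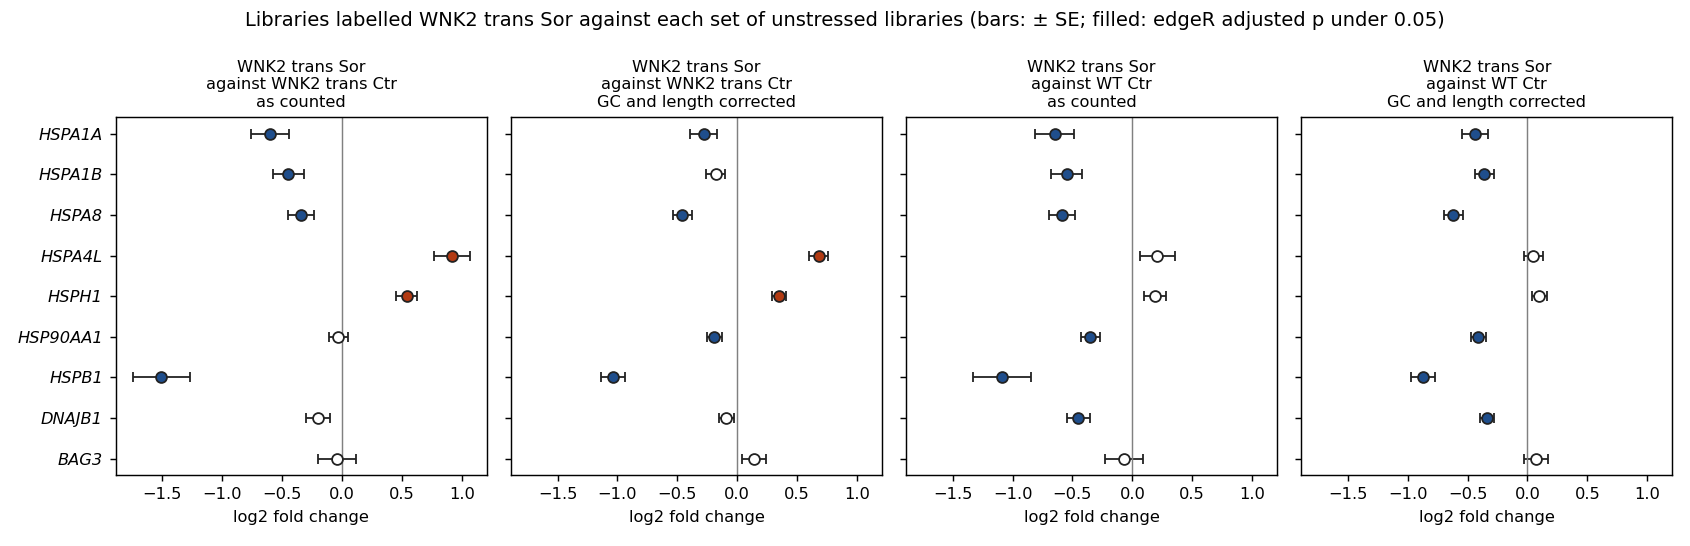
Log2 fold change ± SE (x axis) of WNK2 trans Sor against each set of unstressed libraries, as counted and after correction for GC content and gene length; filled points passed edgeR's test at an adjusted p under 0.05. HSPA4L and HSPH1 are higher against WNK2 trans Ctr and not against WT Ctr, and HSPB1 is lower in all 4 panels.

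CRYAB, also called alpha B-crystallin and a known NFAT5-regulated gene of hypertonic cells, was close to silent. It had 1 read in all over the WT Ctr libraries, 2 over WNK2 trans Ctr and 2 over WNK2- Ctr. Under sorbitol it had 7 over WT Sor, 6 of them in replicate 4, 13 over WNK2 trans Sor and 39 over WNK2- Sor, with 7 to 13 in each WNK2- Sor library. The ratio of WNK2- Sor to WNK2- Ctr was 18.5 (95% exact interval 4.78 to 158) and to WT Sor 4.35 (1.92 to 11.5), intervals that cover counting error only. An exact two-sided permutation test over libraries gave p = 0.0286 for each, the smallest that 4 against 4 allows, and 0.129 after adjustment over 9 comparisons. When low counts were kept in the fit, CRYAB passed edgeR's test in WNK2- Sor against WNK2- Ctr (adjusted p = 0.0241) and not in WNK2- Sor against WT Sor (0.137). HSPB2, whose exons overlap 20.6% of those of CRYAB on the opposite strand, had 0 reads in all 24 libraries.

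The members that varied most over the 6 group means were HSPB1 (a range of 1.60 in mean log2 CPM, lowest in WNK2 trans Sor and highest in WNK2- Ctr), HSP90AA1 (1.20, lowest in WT Sor) and HSPA4L (1.13, lowest in WNK2 trans Ctr). Across the 24 libraries, among 9810 genes, the closest followers of HSPB1 were PLIN3, NCS1 and SURF4, each with a Pearson r of 0.96. Those of HSP90AA1 were IFT57 (0.95), ZC3H15 (0.94) and EIF1AX (0.93), and those of HSPA4L were PHKB (0.96), NSMAF (0.96) and ZNF100 (0.95). These libraries share groups, depth and GC trend, so the values describe likeness only.

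Other chaperones and co-chaperones were counted in the same comparisons. Of 73 such genes in 7 lists, 61 were tested, and in WT Sor against WT Ctr 28 were lower and 1 higher, with a median log2 fold change of -0.25, where 12.7% of all genes tested were called lower. Against the libraries labelled WNK2 trans Ctr the counts were 10 lower and 3 higher, with a median of -0.16, where 6.31% of all genes were called lower. In WNK2- cells after sorbitol 5 were lower and 3 higher, a share near the 14.9% of all genes called there. In WNK2- Sor against WT Sor 31 were higher and 12 lower, with a median of 0.28, where 23.7% of all genes were called higher. For the interaction of genotype and sorbitol 9 were higher and none lower against WT Ctr, where 3.99% of all genes were called higher, and 2 with WNK2 trans Ctr in its place, where 1.09% were.

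The chaperonin CCT, which folds actin and tubulin, had 7 of 8 subunits lower in WT Sor against WT Ctr and 3 of 8 lower against WNK2 trans Ctr. Of all genes tested, 12.7% and 6.31% were called lower in these comparisons. In WNK2- Sor against WT Sor 8 of 8 subunits were higher, where 23.7% of all genes tested were called higher. No subunit of CCT was called in WNK2- cells after sorbitol, where 14.9% of all genes were called. Its subunit TCP1 stood at -0.68 ± 0.13 for WT Sor against WT Ctr (edgeR adjusted p = 0.000621) and at -0.22 ± 0.13 against WNK2 trans Ctr (0.297). Of HSP90 and its co-chaperones, 8 of 11 tested were lower in WT Sor against WT Ctr and 2 against WNK2 trans Ctr, and 8 were higher in WNK2- Sor than in WT Sor. HSPA14, a ribosome-associated HSP70, was lower in WT Sor against WT Ctr (-0.81 ± 0.15, 0.000302) and was not called against WNK2 trans Ctr (-0.42 ± 0.15, 0.0520). BAG2, which inhibits the HSP70 partner CHIP, was lower against both (-0.75 ± 0.15, 0.000938, and -0.52 ± 0.15, 0.0213).

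Small heat shock proteins did not move together. HSPB8, the partner of BAG3 in selective autophagy, was higher in WT Sor than in WT Ctr (0.93 ± 0.13, edgeR adjusted p = 1.47e-05) or WNK2 trans Ctr (0.54 ± 0.13, 0.00469), in WNK2- Sor than in WNK2- Ctr (0.59 ± 0.11, 0.000523) and in WNK2 trans Sor than in WNK2 trans Ctr (0.81 ± 0.13, 9.86e-06) or WT Ctr (1.21 ± 0.13, 8.56e-08). It was higher in WNK2- Ctr than in WT Ctr by 3.05 ± 0.13 (2.65e-15) and in WNK2- Sor than in WT Sor by 2.71 ± 0.12 (3.30e-15). CLU, a secreted chaperone, was also higher in WNK2- cells, by 1.51 ± 0.14 in isotonic medium (3.80e-09) and 1.71 ± 0.14 under sorbitol (2.94e-10), as was DNAJC6, the HSP40 of clathrin uncoating, by 1.48 ± 0.15 (1.19e-08) and 1.51 ± 0.14 (3.04e-09). DNAJC6 was higher in WNK2 trans Sor too, by 1.54 ± 0.15 against WNK2 trans Ctr (6.66e-09) and 1.02 ± 0.15 against WT Ctr (6.04e-06).

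Among listed genes other than the cell type markers, falls in WNK2- Ctr against WT Ctr were largest for DNAJB5, HSF2 and HSPA13. DNAJB5, an HSP40, stood at -0.77 ± 0.13 (edgeR adjusted p = 4.44e-05). HSF2, a heat shock factor, stood at -0.71 ± 0.14 (0.000320) and HSPA13, a microsomal HSP70, at -0.66 ± 0.14 (0.000475). Against WNK2 trans Ctr these stood at -0.64 ± 0.13 (0.000306), -0.47 ± 0.14 (0.00908) and -0.67 ± 0.14 (0.000352), and HSPB8 (2.66 ± 0.13, 7.08e-15), CLU (1.62 ± 0.14, 7.04e-10) and DNAJC6 (1.99 ± 0.15, 5.14e-11) were higher there too.

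SERPINH1, the collagen chaperone HSP47 and an HSF1 target, was lower after sorbitol in WNK2- cells (-1.05 ± 0.10, edgeR adjusted p = 5.50e-08) and in WNK2 trans Sor against WNK2 trans Ctr (-1.42 ± 0.10, 4.25e-11) or WT Ctr (-0.94 ± 0.10, 1.07e-07). HSPA2, an HSP70 best known from testis, was lower in WNK2 trans Sor against the same groups (-0.97 ± 0.09, 1.19e-09, and -0.65 ± 0.09, 1.57e-06), as was DNAJB11, an HSP40 of the endoplasmic reticulum (-0.68 ± 0.15, 0.000476, and -0.54 ± 0.15, 0.00534). HSP90B1, the HSP90 of that compartment, and DNAJB11 were also lower in WNK2- Sor than in WNK2- Ctr, at -0.47 ± 0.10 (0.00168) and -0.44 ± 0.15 (0.0409). In WT Sor, HSP90B1 was lower against WT Ctr (-0.55 ± 0.10, 0.000304) and against WNK2 trans Ctr (-0.35 ± 0.10, 0.0190). SERPINH1 in WT Sor was lower against WNK2 trans Ctr (-0.64 ± 0.10, 7.85e-05) and not called against WT Ctr (-0.17 ± 0.10, 0.241). DNAJB11 in WT Sor was called against neither. In WNK2- Sor against WT Sor, HYOU1, the exchange factor of that compartment, stood at -0.84 ± 0.10 (1.43e-07), SERPINH1 at -0.85 ± 0.10 (2.07e-07) and DNAJB5 at -1.19 ± 0.13 (5.89e-08).

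HSF1 and NFAT5, regulators of these genes, seldom passed the test. HSF1 did not pass the test in any of the 11 comparisons, standing at 0.16 ± 0.16 for WT Sor against WT Ctr (edgeR adjusted p = 0.491) and 0.12 ± 0.16 for WNK2- Sor against WT Sor (0.566). NFAT5 passed only in WNK2 trans Sor against WT Ctr (0.97 ± 0.27, 0.00559). Of NFAT5 and its known targets, 4 of 7 tested were higher and none lower in WT Sor against WT Ctr and in WNK2- Sor against WNK2- Ctr, where 24.1% and 14.9% of all genes were called in either direction. In WT Sor against WNK2 trans Ctr and in WNK2 trans Sor against WNK2 trans Ctr 3 were higher and 1 lower, and in WNK2 trans Sor against WT Ctr 6 were higher. Of all genes tested, 8.74%, 24.3% and 19.8% were called higher in these comparisons, in that order. AKR1B1, the aldose reductase that makes sorbitol in hypertonic cells, was 4.50-fold higher in WNK2- Sor than in WNK2- Ctr (SE 0.11 on the log2 scale, edgeR adjusted p = 5.61e-13). In WT Sor it was 2.82-fold higher against WT Ctr (SE 0.11, 8.44e-10) and 4.40-fold against WNK2 trans Ctr (SE 0.11, 1.35e-12), and in WNK2 trans Sor 4.97-fold against WNK2 trans Ctr (SE 0.12, 2.69e-14) and 3.18-fold against WT Ctr (SE 0.11, 2.78e-11), so the order of these rises depends on the unstressed group. SGK1, a kinase of salt and volume control, was higher by 0.86 ± 0.08 in WT Sor against WT Ctr (2.47e-08), by 0.51 ± 0.08 against WNK2 trans Ctr (4.62e-05) and by 0.65 ± 0.08 in WNK2- Sor (1.59e-06).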

How the data were processed

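Groups were taken from the labels of 24 poly(A) RNA-seq libraries (6 groups of 4). The authors deposited raw read counts per Ensembl gene, 1 table per library, on GRCh38; the submitters' processing notes name FastQC 0.11.9, HISAT2 2.2.1, HTSeq 2.0.2 and DESeq2 1.38.3, and the annotation release and strand setting are not given in the sources used here. Symbols matched 62625 of 62703 identifiers, and GENCODE 29 gave positions for 58279. Depth was 14153002 to 25664619 counts, which limits CRYAB most.

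In R 4.3.3, edgeR 4.0.16 removed low genes (filterByExpr, count of 10 and total of 15), set TMM factors and tested contrasts of 6 group means by quasi-likelihood. 9 pairwise comparisons and 2 interactions were tested over 16600 genes, with Benjamini-Hochberg adjustment and a threshold of 0.05. Alternatives were DESeq2 1.42.0, other scalings and filters, a replicate block, a spline correction of GC content and gene length (5 degrees of freedom, values for 96.3% of genes), summed HSPA1A and HSPA1B, and each library left out; exchanged unstressed libraries were added after the data were seen. The tests were checked on simulated counts. Libraries of a group differed by more than sampling noise in all 36 pairs.

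The members and gene lists (130 of 131 listed genes matched) were chosen with earlier results of these data known. Besides members, the text names WNK2, HSF1 and NFAT5, and the 3 genes most like each of the 3 members of widest range. It also names the 3 largest called rises and falls of other listed genes in each of 5 comparisons (mean log2 CPM 3 or more). Cell type markers were left out of that ranking.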

Additional observations from a re-analysis of the deposited data

Results flagged for a closer look

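A library stood apart from the other 3 of its group (Dixon's ratio above its 95% critical value) in 6 of the 60 sets of 4 normalised read counts of the 10 genes; chance flags about 1 in 20. HSPA8 had 63926 in WT Ctr replicate 2, against 40760 to 44048 in the others, and 43502 in WNK2- Sor replicate 3, against 37839 to 38483. HSPA1B had 499 in WNK2 trans Sor replicate 2, against 693 to 726, and HSPB1 had 1962 in WT Sor replicate 3, against 2435 to 2521. CRYAB had 1.08 in WT Ctr replicate 3, against 0.00 in the others, and 6.13 in WT Sor replicate 4, against 0.00 to 1.01. Where all other libraries of a set hold 0.00, any read gives a ratio of 1.00. The rate of 1 in 20 therefore does not hold for CRYAB.

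Sorbitol responses differed between groups by the interaction test of edgeR. WNK2- cells against unedited cells differed in HSPA8 (0.86 on the log2 scale), HSP90AA1 (0.85), DNAJB1 (0.53) and HSPH1 (0.39), of which HSPA8 and HSP90AA1 passed with either set of unstressed libraries. Transfected against unedited cells differed in HSPA4L (1.38), HSP90AA1 (0.93), HSPH1 (0.77), HSPA8 (0.63), DNAJB1 (0.38) and HSPB1 (-1.36) as labelled, and in none of these with the unstressed libraries of both labels exchanged.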

How the results depend on the processing

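Over 36 alternative settings, 1695 of 1861 recomputed member values kept direction and side of the threshold, 60 lost a call, 43 gained one and 60 uncalled values changed sign. These values include uncalled results and many fits that left out a library. Of the 53 member results called, 19 lost their call in at least 1 setting. The number of members called changed by more than 1.5 times in 9 cases, whose causes were not tested. Without the filter on low counts it was 1 in WNK2- Sor against WNK2- Ctr, which is CRYAB, and 2 in the interaction of genotype and sorbitol. With only the groups compared it was 2 in WNK2- Ctr against WT Ctr and 1 in WNK2 trans Ctr against WT Ctr. With the GC and length correction it was 7 in WNK2- Ctr against WT Ctr, 8 in WNK2 trans Sor against WT Sor and 7 in the interaction of genotype and sorbitol. With the libraries labelled WNK2 trans Ctr in place of WT Ctr, an alternative added after the data were seen, it was 2 in that interaction, and with both exchanged it was 0 in the interaction of transfection and sorbitol. There HSPA4L (-0.05) and DNAJB1 (-0.13) changed sign, as HSPA4L did in WT Sor against WNK2 trans Ctr (0.26).

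Leaving out each library in turn gave 5 to 7 members called in WT Sor against WT Ctr, 0 in WNK2- Sor against WNK2- Ctr, 8 in WNK2- Sor against WT Sor, 3 to 4 in WNK2- Ctr against WT Ctr and 3 to 4 in the interaction of genotype and sorbitol. Same-numbered libraries of different groups showed little shared deviation (r from -0.29 to 0.46, median 0.01, over 60 pairs). For differently numbered libraries r ran from -0.32 to 0.39 (median 0.00, over 180 pairs). The labels do not say whether replicate numbers pair the samples, and these values cannot exclude it. The fit with a replicate block left 3 of the 4 members called in the interaction of genotype and sorbitol. HSPH1 lost its call (edgeR adjusted p = 0.0519), and no other call changed.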
